A study of Mus musculus with 36 samples.

Results

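Liver RNA of YAP transgenic mice that lack Tet1 (Tet1 KO YAP Tg, genotype Tet1 -/- YAP Tg, below called the knockout) was compared, across all genes, with liver RNA of YAP transgenic mice (YAP Tg). The comparison rests on 6 libraries, 3 of each genotype, of 36 samples in the whole series, and they were chosen by their genotype labels and not by any measured value. All mice were C57BL/6 and all had doxycycline at 50 mg/L in the drinking water, taken by mice 1 month old or by nursing mothers of pups. The age at which the livers of these libraries were taken, the sex and the length of treatment are not given in the labels. The 3 wild type control libraries (Control), also on doxycycline, were part of the statistical fit and are given as the background level of each gene. The labels name neither the promoter that drives the transgene nor the species of its YAP, nor the part of Tet1 that is deleted, nor whether the deletion is in every cell. No group with the Tet1 deletion and without the transgene was analysed here, so the comparison holds for transgenic liver only. Nothing in the labels ties each library to an animal of its own, and p-values then measure the spread between these libraries, which may be technical.

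YAP is a transcriptional co-activator that the kinases of the Hippo pathway hold in the cytoplasm. It has no DNA-binding domain and acts through the TEAD factors, which bind the bases GGAATG. Raised YAP activity enlarges the liver in mice and gives hepatocytes properties of bile duct and fetal liver cells. TET1 oxidises 5-methylcytosine, the first step in removing methyl groups from cytosine, and its gene is usually little expressed in adult liver.

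The sequences before the start sites of 3 genes of the YAP and TEAD pathway are shown, all of them at least 2-fold lower in the knockout: Ankrd1 and Cyr61 are textbook targets of YAP, and Vgll3 encodes a protein that binds TEAD factors. Each sequence is the 250 bases before the start site, in the direction of the gene, from RefSeq (GRCm38.p6), and capitals mark GGAATG or its reverse complement CATTCC, searched on both strands.
Ankrd1, chr19:36119845-36120094, minus strand: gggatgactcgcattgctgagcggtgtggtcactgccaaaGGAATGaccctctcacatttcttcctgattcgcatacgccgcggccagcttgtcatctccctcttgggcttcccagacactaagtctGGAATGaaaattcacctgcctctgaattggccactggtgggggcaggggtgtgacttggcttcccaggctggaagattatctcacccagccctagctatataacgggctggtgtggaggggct
Cyr61, chr3:145649986-145650235, minus strand: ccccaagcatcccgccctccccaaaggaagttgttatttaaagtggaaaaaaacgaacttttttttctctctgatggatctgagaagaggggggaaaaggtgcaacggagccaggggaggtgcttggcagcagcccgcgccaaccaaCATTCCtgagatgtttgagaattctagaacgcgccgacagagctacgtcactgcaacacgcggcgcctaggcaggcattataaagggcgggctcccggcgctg
Vgll3, chr16:65814939-65815188, plus strand: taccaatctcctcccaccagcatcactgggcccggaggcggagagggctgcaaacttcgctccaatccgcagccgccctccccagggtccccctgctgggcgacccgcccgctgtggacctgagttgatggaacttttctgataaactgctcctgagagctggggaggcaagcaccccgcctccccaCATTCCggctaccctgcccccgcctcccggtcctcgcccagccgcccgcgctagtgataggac
The window of Ankrd1 held 2 matches, and those of Cyr61 and Vgll3 held 1 each. In windows that also take in 50 bases after the start, 4817 of 32851 (14.7%) of all RefSeq start sites held a match. Such a window was at hand for 10 of the 15 largest falls described below, of which 5 held a match, and for 10 of the 15 largest rises, of which 2 did. The 3 genes shown were picked as examples, and matches over the other members of the pathway were not counted. Ankrd1 and Vgll3 are also among the 5 largest falls with a match. The matches describe these letters only.

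Tet1 was checked first. Levels are in normalised reads, the deposited unit, which is scaled per library and leaves library totals unequal. Tet1 was at 9.90, 8.59 and 8.97 in the 3 YAP Tg libraries and 1.25, 0.954 and 0.587 in the 3 knockout libraries. All 3 knockout libraries lay below all 3 transgenic ones, with a log2 fold change of -2.78 (SE 0.211, adjusted p = 2.46e-07). The remaining 60 reads over the knockout group, against 771 over YAP Tg, were at the level of controls, where Tet1 stood at 0.935, 0.756 and 0.356. The level of Tet1 therefore separated the knockout from YAP Tg but not from wild type, and the reads do not show which part of the gene is missing. Tet1 lies on chromosome 10, 62804570 to 62887469 (GRCm38.p6, as for all positions). The other genes of the family differed little: Tet2 was at 30.7 ± 0.381 in YAP Tg and 28.1 ± 0.371 in the knockout (mean ± SD, n = 3), with an adjusted p of 0.0994, and Tet3 at 26.5 ± 2.04 and 22.7 ± 1.51, with an adjusted p of 0.0751. Both calls turn with the fit: Tet3 was called lower by edgeR (adjusted p = 0.0493) and both genes were called lower without Control replicate 2 (adjusted p = 0.0251 for Tet2 and 0.00517 for Tet3).

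Yap1 reads were 27.6, 32.1 and 29.9 in YAP Tg, 48.5, 52.5 and 52.4 in the knockout and 58.6, 47.1 and 58.8 in controls. They were higher in the knockout than in YAP Tg (log2 0.77, SE 0.0898, adjusted p = 1.15e-05), and this call ended when near-identical libraries were added together (adjusted p = 0.0729). In that alternative, libraries of a group whose coefficient of variation beyond counting error was under 0.05 were added and counted as 1 library, which left 4 libraries in the fit, below called the 4-library fit. Each of the compared genotypes is then 1 library, and the residual degree of freedom comes from the controls alone, from Control replicate 2, which stands apart, against the sum of the other controls. A call that ended in this fit is therefore one that needs the libraries of a genotype to be separate samples, and it does not show a smaller effect. Since Yap1 reads were fewest in the transgenic livers, they do not report the transgene, and how much transgene RNA either genotype made was not measured here.

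Depth was 23528750, 24765820 and 23468633 reads in YAP Tg and 22766044, 22347119 and 19082417 in the knockout, and between 19954131 and 25067861 in controls. Libraries of a genotype were very alike. Beyond counting error they differed by a coefficient of variation of 0.00697 to 0.0474 in YAP Tg and 0.0208 to 0.0287 in the knockout, and of 0.0256 to 0.138 in controls. Control replicate 2 stood apart, and without it the number of genes called rose from 9251 to 10253. Reads of the 45S ribosomal RNA gene Rn45s took 6.44% and 7.82% of reads in the other control libraries, 0.148% in this one, 0.132% to 0.191% in YAP Tg and 0.104% to 0.106% in the knockout.

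Many genes differed between the genotypes, and how many were called depended on whether the libraries count as separate samples. Of 13730 genes tested, 9251 (67.4%) were called at an adjusted p below 0.05 by limma, of which 4587 (33.4% of all tested) were higher and 4664 (34.0%) lower in the knockout. In the 4-library fit 2953 were called, 1316 higher and 1637 lower. Most of the 9251 calls of the fit with all 9 libraries were of small changes, since 6421 of them (69.4%) were under 2-fold. At least 2-fold higher in that fit were 1116 genes (8.13%) and at least 2-fold lower 1714 (12.5%), which makes 2830 genes. At least 8-fold were 136 rises and 124 falls, and at least 32-fold 43 rises and 15 falls. The median log2 fold change over all genes was 0.00, with quartiles of -0.47 and 0.41. When each library was scaled to the same total instead, this median moved to -0.23, and the calls split into 2949 higher and 6648 lower. The counts at 2-fold moved as well, to 765 higher and 2288 lower. A small change, and the balance of the 2-fold calls, are thus relative to the scaling chosen by the authors. Of the genes tested, 565 passed the filter on low values only through YAP Tg libraries and 203 only through knockout libraries, and for such genes the direction is not independent of the filter. In the authors' deposited table, 4805 genes were higher and 5106 lower at a false discovery rate below 0.05, and all 2830 of the genes counted here at 2-fold were called there in the same direction.

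Direction went with the level of expression. Of the 196 genes with a mean of 500 or more normalised reads over the 6 libraries, 41.3% were at least 2-fold higher and 4.59% lower in the knockout. Of the 2598 genes between 1 and 5 normalised reads, 5.62% were higher and 21.8% lower. The classes between them, from 5 to 50 and from 50 to 500, had 5.91% and 15.9% higher, and 12.2% and 4.81% lower. Under 1 normalised read, 4.10% of genes were higher and 12.1% lower. These classes include the genes that passed the filter only through YAP Tg (565) or only through the knockout (203). How such genes spread over the classes was not counted, and the shares hold for the authors' scaling.

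**Figure D1:**
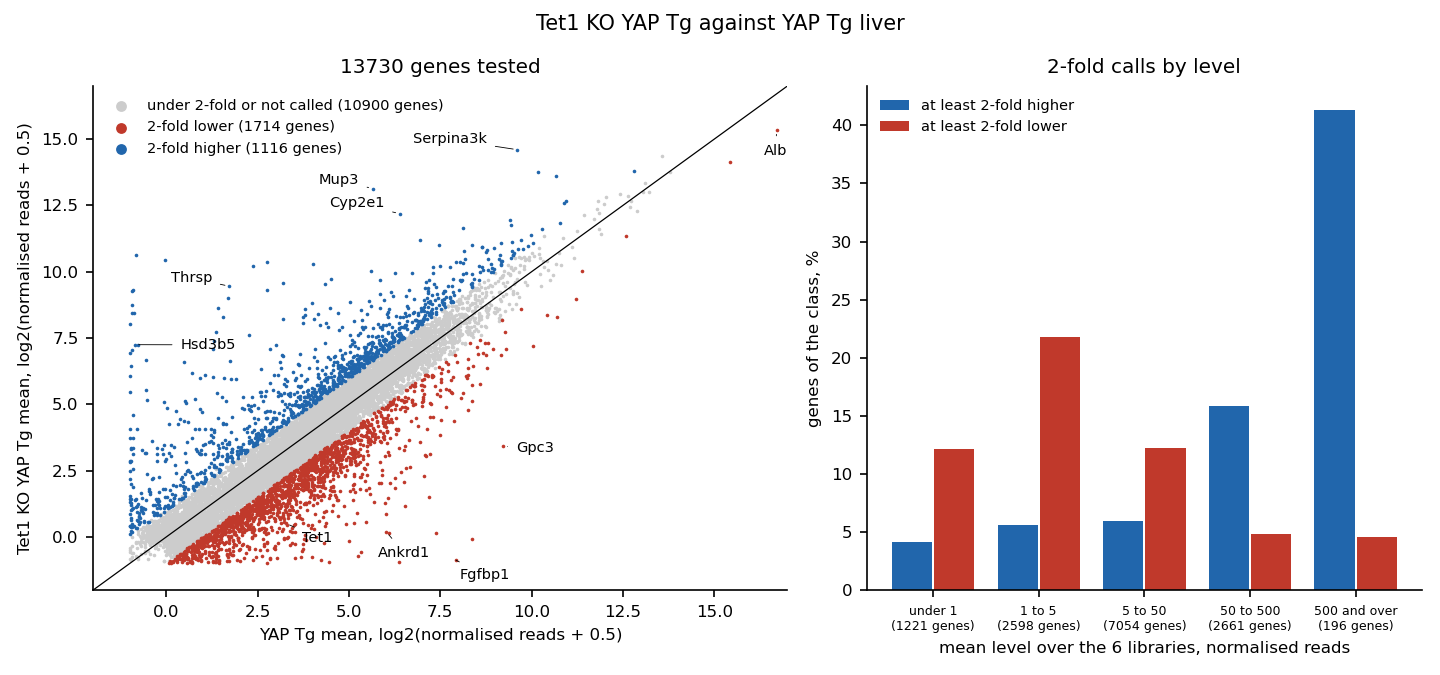
Left, mean levels of the 13730 genes tested in YAP Tg (x axis) and Tet1 KO YAP Tg (y axis), both as log2(normalised reads + 0.5), with a line of equal level; blue points were called at least 2-fold higher (1116 genes), red points at least 2-fold lower (1714 genes) and grey points neither. Right, the percentage of genes at least 2-fold higher (blue) and lower (red) by mean level; the share higher reaches 41.3% among the 196 genes at 500 or more normalised reads.

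The largest falls were of genes that wild type liver hardly expresses. Fgfbp1, a secreted carrier that frees fibroblast growth factors from the matrix, stood at 248, 244 and 237 normalised reads in YAP Tg and had 3 reads, all in one library, over the knockout group. It was lower by a factor of 5113, with a 95% counting interval of 1749 to 24794, and had no read in controls. Fgfbp1 thus passed the filter on low values only through YAP Tg, so its direction is not independent of the filter. Psca, a surface antigen first known from prostate, went from 84.6, 83.8 and 80.3 to 1 read over the group, a factor of 5236 (95% counting interval 939 to 206822). These intervals cover counting error only. H19, an imprinted RNA of fetal liver, was at 169.6, 168 and 161 in YAP Tg and at 0.760, 0.500 and 0.533 in the knockout, while controls had 3.27, 1.78 and 2.20. The heparan sulfate proteoglycan gene Gpc3, which is also a fetal liver gene, kept some RNA, at 10.2 ± 0.483 against 597 ± 8.12 in YAP Tg and 1.72 ± 0.186 in controls (log2 -5.80, SE 0.0738, adjusted p = 3.44e-14). Sftpd, which encodes the lung surfactant protein D, was at 1.74 ± 0.232 against 91.7 ± 3.67, and Fam83b, whose product acts in growth factor signalling, at 2.37 ± 0.427 against 145 ± 0.880. The channel genes Kcnh7 and Scn7a, the regulator of ion transport Fxyd3 and the cone phosphodiesterase gene Pde6c, none of them a usual hepatocyte gene, all had means from 31.6 to 63.6 in YAP Tg and from 0.113 to 1.33 in the knockout. Vgll3, Ankrd1 and the metabolic genes Cyp2b9 and Hao2 were also among the 15 largest falls and are described with their groups. Without any read in the knockout, and with at least 1 normalised read in each YAP Tg library, were 2 genes: the photoreceptor gene Rp1, at 6.19, 5.77 and 6.71 in YAP Tg, and Frmpd1, at 1.91, 2.82 and 1.97. For these genes without a read, 3 reads in the whole group were taken as the lowest level that could be seen, and they were at least 131-fold and at least 47.0-fold lower. Genes named here with under 0.5 normalised reads in every knockout library, such as Psca, Rp1 and Frmpd1, could not pass the filter there. Unless the control libraries alone would pass such a gene, its direction is not independent of the filter either.

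The largest rises were mostly of metabolic enzymes and secreted proteins that wild type liver also makes, with 1 exception. Hsd3b5, a steroid-metabolising enzyme of male liver, rose from 0.0360, 0.0687 and 0.0365 to 159, 150.1 and 146, with 223, 359.9 and 228 in controls. Orm1, a secreted acute phase glycoprotein, rose from 4.72 ± 0.371 to 1183 ± 40.8 (log2 7.83, SE 0.0649, adjusted p = 9.49e-16), and controls were at 909 ± 60.2. The lipogenic regulator Thrsp went from 2.79 ± 0.220 to 701 ± 13.0, which was 139 ± 15.2 in controls, and Acacb, the mitochondrial acetyl-CoA carboxylase, from 1.94 ± 0.201 to 135 ± 3.25. The carboxylesterase genes Ces3a, Ces3b and Ces1f, whose products cleave esters of drugs and lipids, rose from 6.30, 2.75 and 2.18 to 1324, 514.5 and 392.4. Among cytochrome P450 genes, Cyp2e1, the ethanol-oxidising enzyme, went from 84.3, 79.2 and 86.4 to 4557, 4641 and 4787, and Cyp2c29, Cyp2a5 and Cyp4a12b rose by 6.28, 6.77 and 7.23 on the log2 scale. Slco1a1, which carries organic anions into hepatocytes, rose from 8.70 ± 0.719 to 769 ± 18.8 and the adipokine gene Serpina12 from 1.99 ± 0.563 to 165 ± 1.45. The exception was Serpina3c, a serine protease inhibitor gene, which had 153, 138 and 154 normalised reads in the knockout, 0.0827 ± 0.0177 in YAP Tg and 0.433 ± 0.122 in controls. Its level was thus high in the knockout libraries alone of these 3 groups. It passed the filter on low values only through these libraries, so the direction of its change is not independent of the filter. Serpina3c has several close paralogs, as have the Ces3, Cyp2c, Cyp2a and Cyp4a genes, so the share of reads each copy received is uncertain.

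Without any read in YAP Tg, and with at least 1 normalised read in each knockout library, were 13 genes, led by the major urinary protein gene Mup19 (257, 269 and 263 in the knockout, at least 7381-fold higher), the pseudogene Serpina4-ps1 (119.8, 123 and 127), Mup16, Mup1 and Cml5, the last at 16.4 ± 1.48. Mup genes encode the pheromone carriers that male mouse liver secretes into the urine. All 18 Mup genes tested were at least 2-fold higher, with log2 fold changes from 1.11 to 10.2. The lowest, 1.11 for Mup8 and 1.41 for Mup6, are bounded by the added 0.5, since neither had a read in YAP Tg. The summed level of the 18 genes was 1693 ± 60.9 in YAP Tg, 25127 ± 167 in the knockout and 21969 ± 681 in controls. Most of the YAP Tg sum was Mup20, at 1636 ± 59.1 there and 12597 ± 274 in the knockout, while Mup3 went from 49.7 to 8989. Because the copies are near-identical, the sum is firmer than the value of any 1 copy.

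Measured in normalised reads and not in folds, the largest loss was of albumin RNA. Alb was at 105383, 107807 and 106927 in YAP Tg, 42436, 40429.9 and 41152 in the knockout and 91030.2, 107946 and 99011 in controls, and it took 12.4% to 12.7% of all reads in YAP Tg and 3.98% to 4.17% in the knockout. Albumin, the most abundant secreted protein of hepatocytes, was thus lower than in wild type liver as well. Transferrin (Trf), the iron carrier of plasma, went from 43952 ± 284 to 18036 ± 459.6 and ceruloplasmin (Cp), the copper-carrying ferroxidase, from 6181 ± 187 to 2632 ± 19.99. Other large losses were of Itih2, a plasma protein that binds hyaluronan, from 2642 ± 53.2 to 1036 ± 11.3, and of Sult1a1, a phenol sulfotransferase, from 2393 ± 21.0 to 505 ± 4.32. Apoa1, Eef1a1 and Kng1 lost less than 2-fold each, and their calls, like those of Alb (adjusted p = 0.217), Trf (adjusted p = 0.12) and Bhmt below, ended in the 4-library fit. The largest gain was of Serpina3k, a plasma protease inhibitor, from 767, 787 and 784 to 25977, 24237 and 24219.9, above the 9699 to 13571 of controls. Scd1, the fatty acid desaturase, rose from 1146 ± 17.4 to 13692 ± 385, Bhmt, which methylates homocysteine, from 7094 ± 36.4 to 14379.5 ± 381, and the sterol carrier gene Scp2 from 1906 ± 67.0 to 6158 ± 195. Cyp3a11, the main drug-oxidising P450 of mouse liver, was at 97.6 ± 2.59 in the knockout, 159.5 ± 7.36 in YAP Tg and 6026 ± 453 in controls. Its call ended in the 4-library fit.

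The gene lists below stand against all genes tested, of which 33.4% were higher and 34.0% lower, 8.13% and 12.5% by at least 2-fold. The YAP and TEAD pathway was mostly lower. Of 41 members tested, 24 were lower and 9 higher, 16 of them by at least 2-fold lower (39.0%, against 12.5% of all genes) and 1 by 2-fold higher, and the median log2 fold change was -0.58. In the 4-library fit 18 were called lower and 2 higher at any fold, as against the 24 and 9. Of the members, 2, among them Vgll3, passed the filter only through YAP Tg, and 1, a target, only through the knockout. Among its 18 transcriptional targets, 9 were at least 2-fold lower. Ankrd1, a titin-binding protein induced by stretch, went from 61.8, 65.7 and 65.6 to 0.715, 0.636 and 0.587, and controls were at 0.760, 0.178 and 0.356. The matricellular genes Ctgf and Cyr61 differed in how far they went: Ctgf was at 22.4 ± 0.316 in the knockout and 18.8 ± 5.68 in controls, whereas Cyr61 was at 17.1 ± 1.05 in the knockout and 5.77 ± 0.731 in controls. The receptor tyrosine kinase gene Axl went from 126 ± 3.09 to 33.5 ± 1.19, the membrane repair gene Myof from 35.2 ± 1.79 to 7.52 ± 0.828 and the stress-induced Gadd45b from 34.0 ± 0.756 to 2.13 ± 0.396. Crim1, a further target, was at 72.4 ± 1.36 and 72.9 ± 4.60 with an adjusted p of 0.959, and Rbms3, which encodes an RNA-binding protein, was the target at least 2-fold higher, from 7.8 to 17.3 normalised reads.

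Of the 8 TEAD factors and their partners, 5 were lower and 1 was higher. Vgll3 was at 39.7, 38.2 and 41.7 in YAP Tg and at 0.224, 0.227 and 0.0533 in the knockout, with 0.175, 0.178 and 0.297 in controls (log2 -5.93, SE 0.141, adjusted p = 8.87e-12). Tead4 went from 11.3, 11.1 and 10.6 to 0.536, 0.727 and 0.640, near the 0.400 to 0.534 of controls. Tead2 was lower at 1.40 ± 0.430 against 3.76 ± 0.0601, and Wwtr1, which encodes the YAP relative TAZ, at 37.9 ± 1.52 against 75.5 ± 0.947, while Tead3 (adjusted p = 0.784) and the repressor gene Vgll4 (adjusted p = 0.173) were not called. Upstream components, several of which are themselves targets of YAP in feedback, were lower where called at 2-fold: Amotl2, which tethers YAP at junctions, from 155 ± 3.68 to 64.4 ± 2.26, Wwc1, a scaffold of the kinases, from 110.2 ± 4.33 to 50.5 ± 0.699, Ajuba from 65.0 ± 2.21 to 21.9 ± 1.29 and Ptpn14 from 12.7 ± 1.05 to 3.86 ± 0.646. Amotl2, Wwc1 and Ajuba remained above control means of 20.2, 24.7 and 3.92.

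**Figure D2:**
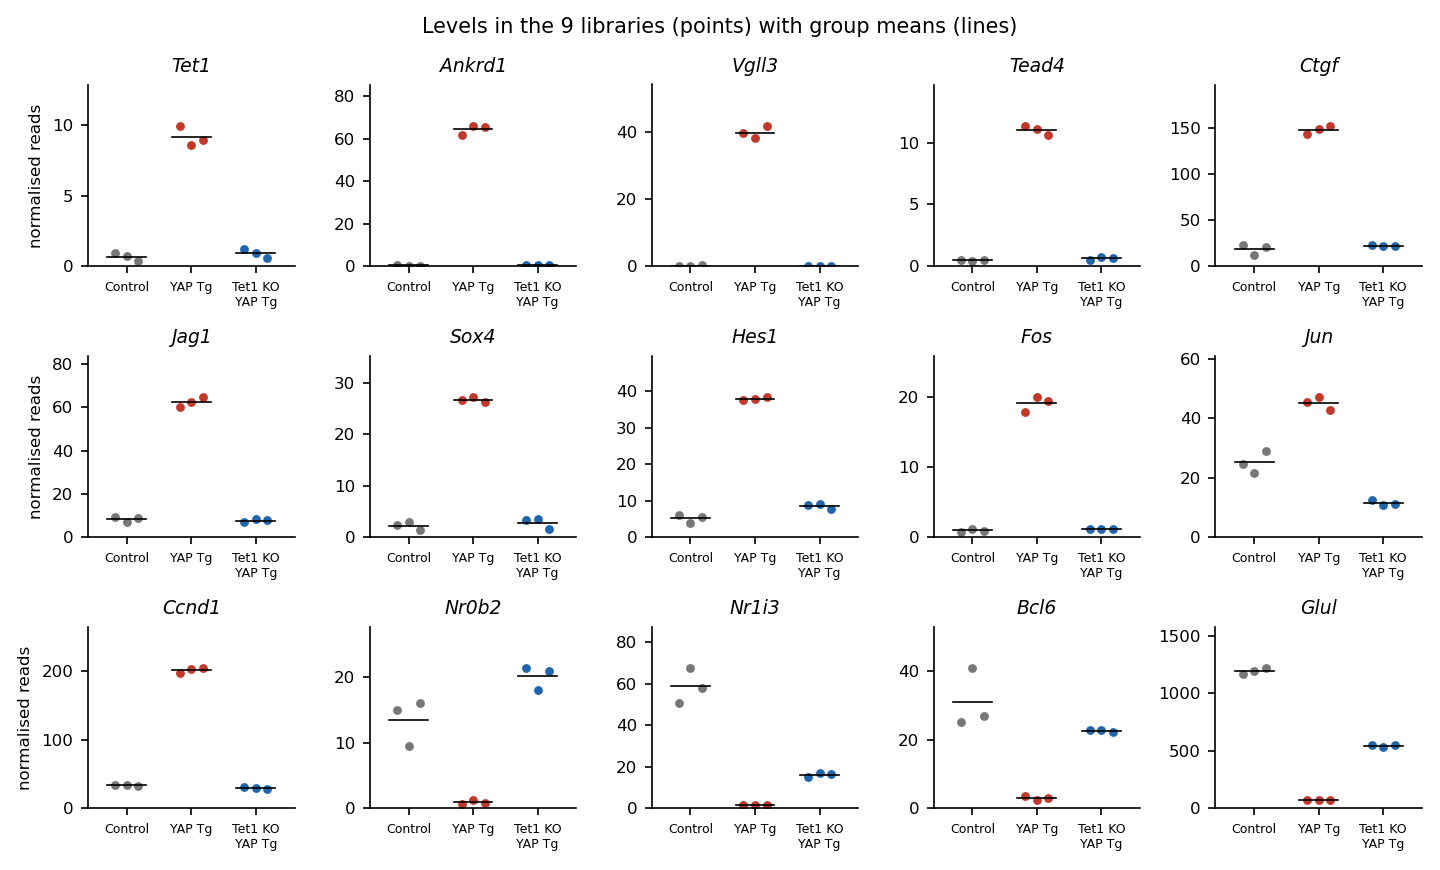
Levels in normalised reads (y axes from 0) of 15 genes in the 9 libraries of Control (grey), YAP Tg (red) and Tet1 KO YAP Tg (blue), with lines at the group means. Tet1, the YAP and TEAD genes, the Notch genes Jag1, Sox4 and Hes1, the AP-1 genes Fos and Jun and Ccnd1 are high in YAP Tg and low in the knockout, and Nr0b2, Nr1i3, Bcl6 and Glul are low in YAP Tg and higher in the knockout.

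Immediate early genes, which cells switch on within minutes of growth or stress signals, were lower as a group. Of 20 tested, 19 were lower and none higher, 14 of them (70.0%) by at least 2-fold, with a median log2 fold change of -1.35. Calls at any fold numbered 14 lower in the 4-library fit, and 3 members (Batf, Batf2 and Ier3) passed the filter only through YAP Tg. The AP-1 subunit Fos was at 17.9, 19.9 and 19.4 in YAP Tg and at 1.207, 1.181 and 1.120 in the knockout (log2 -3.55, SE 0.12, adjusted p = 1.97e-10), with controls at 0.818 to 1.201. Its partner Jun went from 45.2 ± 2.11 to 11.5 ± 0.958, below the 25.2 ± 3.77 of controls, and Atf3, Maff, Junb, Jund, Fosl2 and Batf were also lower by at least 2-fold. Outside AP-1, the zinc finger factors Klf6 and Egr1 went from 103 ± 1.39 to 20.1 ± 0.807 and from 16.0 ± 0.915 to 2.97 ± 0.280, Egr1 again below controls at 8.37 ± 0.654. Ier3, a survival gene, was at 0.287 ± 0.0965 against 4.13 ± 0.217. Zfp36, which speeds the decay of AU-rich messengers, was the member that was not called, at 62.6 ± 2.81 against 59.4 ± 0.430 (adjusted p = 0.354).

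Notch signalling, which directs cells of the liver to the bile duct fate, was lower by at least 2-fold at its ligand Jag1 and at 4 of 6 targets, and by less at its receptors. Of 21 members tested, 14 were lower and 2 higher, 8 of them (38.1%) at least 2-fold lower and none 2-fold higher (median log2 -0.49). At any fold, 6 were called lower and none higher in the 4-library fit. The ligand gene Jag1 went from 60.3, 62.4 and 64.6 to 7.20, 8.27 and 7.84, and controls stood at 6.85 to 9.18. Among targets, Sox4 went from 26.6, 27.1 and 26.2 to 3.31, 3.59 and 1.55, the repressor Hes1 from 37.8 ± 0.407 to 8.61 ± 0.672 and the bile duct factor Sox9 from 10.4 ± 0.418 to 3.81 ± 0.241. Lfng, which sugars the receptor and so tunes it to its ligands, was at 2.40 ± 0.606 against 8.30 ± 0.837. Of the receptor genes, Notch1 and Notch2 were called lower by less than 2-fold, and Notch3 and Notch4 were not called.

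Genes of other growth factor pathways moved both ways, as did all genes tested (33.4% higher and 34.0% lower, 8.13% and 12.5% by at least 2-fold). In the EGF and FGF families 13 of 25 members were lower and 8 higher, 6 (24.0%) and 5 (20%) of them by at least 2-fold, and in the 4-library fit 7 were called lower and 5 higher at any fold. The growth factor genes Hbegf, which encodes a ligand of the EGF receptor, and Nrg1, which encodes a ligand of related receptors, went from 11.9 ± 0.712 to 1.29 ± 0.179 and from 19.2 ± 0.567 to 7.0001 ± 0.472, and Fgf21, a hormone of the fasting liver, from 5.72 ± 0.538 to 0.457 ± 0.216. The receptor gene Egfr rose from 397.2, 392.3 and 408.6 to 1161, 1156 and 1153 (controls 1261 to 1864), and so did its feedback inhibitors Errfi1, from 569.7 ± 18.9 to 1348 ± 40.1, and Lrig1, from 13.9 to 33.3. Of 30 HGF, PDGF, VEGF and insulin-like growth factor genes 13 were lower and 11 higher, near the 34.0% and 33.4% of all genes, and 6 and 3 by at least 2-fold. The 4-library fit called 5 lower and 4 higher. Pdgfb, a mitogen of stellate cells, went from 9.31 ± 0.313 to 0.849 ± 0.151 and Mst1r, the receptor of macrophage-stimulating protein, from 1.63 ± 0.151 to 0.0755 ± 0.0947. The binding proteins of insulin-like growth factor moved apart, Igfbp1 from 296 ± 4.30 to 66.0 ± 3.60 and Igfbp4 from 259 ± 8.21 to 634 ± 9.02. In the EGF and FGF list 2 members passed the filter on low values only through YAP Tg. The same holds for 2 members of the list of HGF, PDGF, VEGF and insulin-like growth factors.

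In the TGF-beta, BMP and activin pathway 20 of 40 members were lower and 12 higher, against 34.0% and 33.4% of all genes. By at least 2-fold 13 (32.5%) were lower and 2 higher, against 12.5% and 8.13%. Calls at any fold fell to 13 lower and 3 higher in the 4-library fit. All 4 target genes tested were at least 2-fold lower. Id1, an inhibitor of helix-loop-helix factors that BMP signals induce, went from 46.1, 47.3 and 48.1 to 2.86, 2.32 and 2.61, within the 1.91 to 3.10 of controls. The ligand genes Bmp4 and Tgfb2 went from 32.2 ± 0.631 to 7.42 ± 0.819 and from 9.50 ± 1.05 to 1.12 ± 0.248, whereas Inhbe, a hepatokine of the activin family, rose from 4.91 ± 0.417 to 19.3 ± 0.687.

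Genes of the Wnt pathway, which maintains the hepatocytes around the central vein, were more often higher as scaled by the authors, but not with equal library totals. Of 31 Wnt pathway genes tested 14 were higher and 4 lower, 7 (22.6%, against 8.13% of all genes) at least 2-fold higher and 1 at least 2-fold lower. With equal library totals 9 were higher and 9 lower, and the median log2 fold change moved from 0.29 to 0.03. The 4-library fit called 6 higher and 1 lower at any fold. Notum, a secreted enzyme that inactivates Wnt ligands, rose from 0.324, 0.172 and 0 to 7.33, 8.90 and 9.01, against 15.7, 22.3 and 16.2 in controls. Glul, the glutamine synthetase of central vein hepatocytes, rose from 72.9 ± 0.526 to 543 ± 6.45 (log2 2.89, SE 0.0418, adjusted p = 1.15e-13), against 1192 ± 26.4 in controls, and the R-spondin receptor Lgr5 from 0.216 ± 0.195 to 2.98 ± 0.471, against 7.35. Axin2, the feedback inhibitor, reached 4.94 ± 0.379 from 1.06 ± 0.150 and was at 4.17 ± 0.318 in controls. The Wnt ligand gene Wnt2 and the receptor gene Lgr4 rose as well, from 1.44 to 4.95 and from 45.7 to 107, while the receptor gene Fzd6 was lower, at 4.03 against 11.7. Of the Wnt pathway genes 1, a ligand, passed the filter on low values only through YAP Tg.

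Cell cycle genes were lower. Among 30 cyclins, kinases, inhibitors and E2F factors 20 were lower and 4 higher, 10 (33.3%) by at least 2-fold lower and none 2-fold higher, and in the 4-library fit 10 were called lower and 1 higher at any fold. Ccnd1, the cyclin of the entry into the cycle, went from 198, 203 and 204 to 31.3, 29.3 and 27.9 (log2 -2.75, SE 0.0571, adjusted p = 2.97e-12), and controls were at 32.2 to 34.3. The mitotic cyclin Ccnb2 was at 1.87 ± 0.238 against 13.2 ± 0.570, the kinase gene Cdk1 at 3.51 ± 0.606 against 13.2 ± 0.756 and the factor E2f1 at 3.64 against 9.72. Of 6 inhibitors of the cycle 5 were lower as well: Cdkn1a, which encodes p21, was at 3.26 ± 0.641 against 15.3 ± 1.02, and below controls at 9.83 ± 0.999. Ccnd2 was the cyclin that rose, from 14.2 ± 0.524 to 26.3 ± 1.02. Among 34 regulators of apoptosis 17 were lower and 8 higher, 10 (29.4%) by at least 2-fold lower and none 2-fold higher, and in the 4-library fit 11 were called lower and none higher. The TWEAK receptor gene Tnfrsf12a went from 80.6, 76.3 and 72.6 to 3.53, 4.91 and 3.95 and lay near controls at 2.76 to 3.44. Both sides of the balance were lower, the pro-apoptotic Pmaip1 and Bcl2l11 at 1.53 and 4.04 against 9.92 and 15.1, and the protective Bcl2 and Birc5 at 10.1 and 2.77 against 29.1 and 10.8. Of the apoptosis regulators 1 passed the filter on low values only through YAP Tg.

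Genes of the actin cytoskeleton, cell junctions and epithelia were lower in 39 of 54 members and higher in 10, with 17 (31.5%) by at least 2-fold lower and 2 higher (median log2 -0.64). Of the 21 actin genes among them 19 were lower, 7 by at least 2-fold. With 4 libraries the calls at any fold fell to 21 lower and 2 higher, and 4 members passed the filter only through YAP Tg. The annexin and S100 genes, whose products bind calcium at membranes, moved most, with 8 of 11 at least 2-fold lower. S100a11 went from 26.6, 27.4 and 32.5 to 2.19, 1.27 and 1.71, and Anxa5 from 1377 ± 55.4 to 329 ± 6.50, which was still above controls at 112 ± 21.4. The myosin light chain gene Myl12a was at 62.8 ± 2.15 against 297 ± 8.16 and the actin-binding peptide gene Tmsb4x at 114 ± 3.04 against 429 ± 22.7. Of the keratins, Krt8 and Krt18, which hepatocytes make, were lower at 159.6 ± 5.89 against 445 ± 17.7 and 213 ± 5.94 against 615 ± 24.6, while Krt19, a bile duct keratin, was at 1.15 ± 0.350 against 0.419 ± 0.172 and called higher (log2 0.84), a call that ended in the 4-library fit. Of the 6 keratins tested, 1 passed the filter on low values only through the knockout. Of 16 junction genes tested 7 were lower and 6 higher, with none at least 2-fold lower and 2 at least 2-fold higher. The claudin gene Cldn2 was among the latter, at 76.1 against 32.9.

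**Figure D3:**
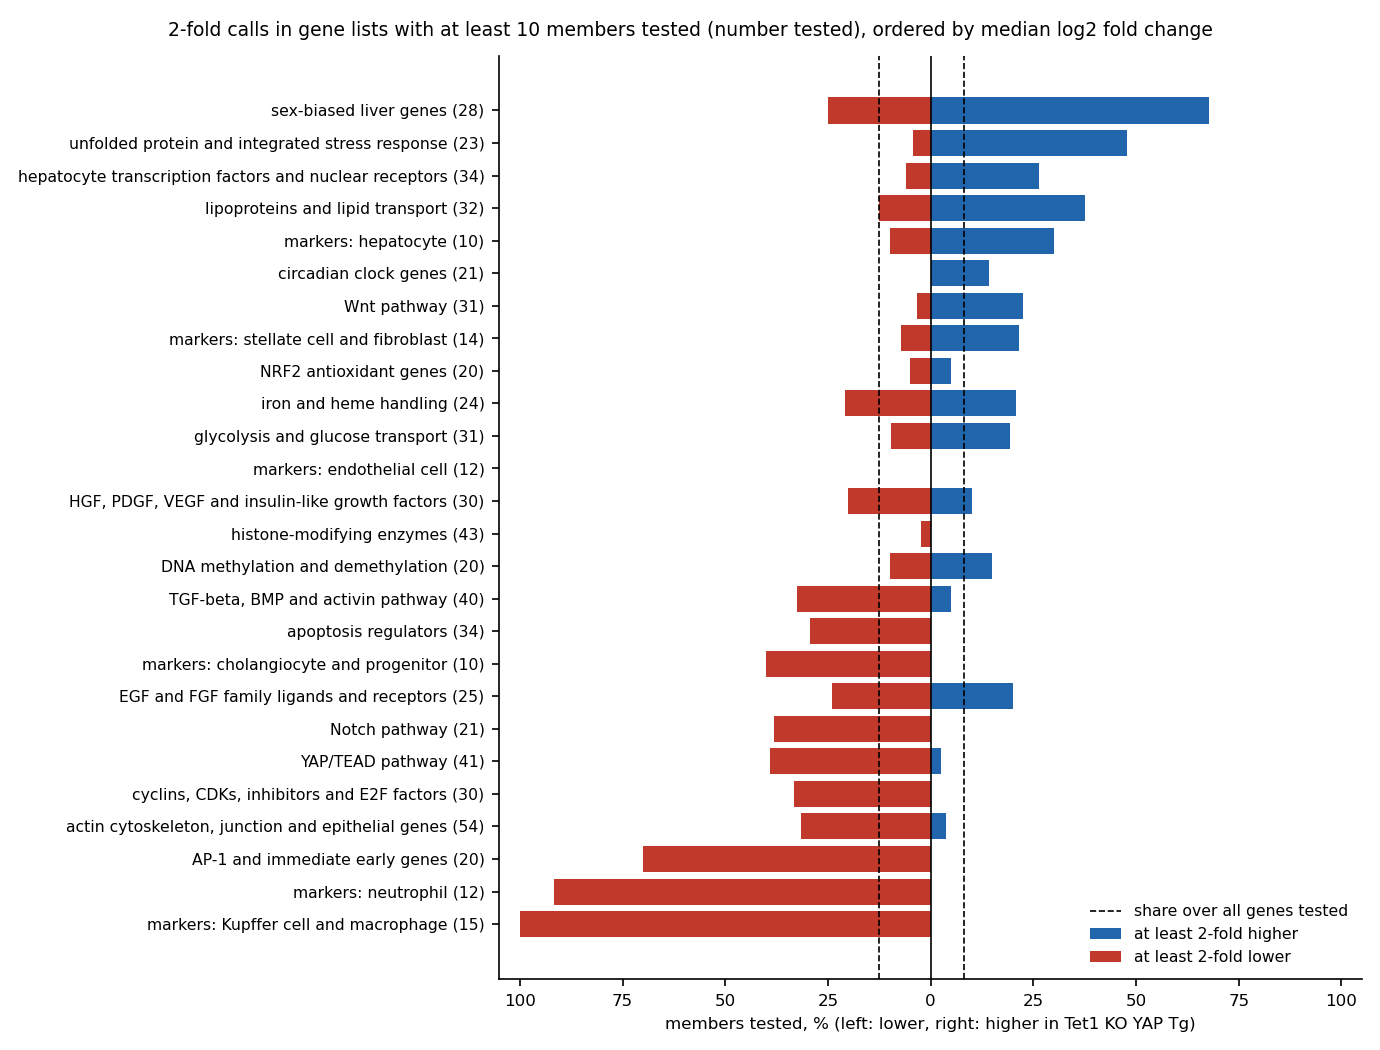
Percentage of the members tested in each gene list that were called and at least 2-fold higher (blue, to the right) or lower (red, to the left) in Tet1 KO YAP Tg, for lists with 10 or more members tested, with dashed lines at the shares over all 13730 genes (8.13% higher and 12.5% lower). Macrophage, neutrophil and immediate early genes reach 100%, 91.7% and 70.0% lower, and sex-biased liver genes 67.9% higher. Of the 12 neutrophil genes, 10 passed the filter on low values only through YAP Tg.

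Transcription factors and nuclear receptors of hepatocytes were higher in 25 of 34 members and lower in 4, with 9 (26.5%) at least 2-fold higher and 2 at least 2-fold lower (median log2 0.63). At any fold, the calls fell to 12 higher and 1 lower in the 4-library fit. Nr0b2, the bile acid-induced repressor SHP, rose from 0.684, 1.203 and 0.802 to 21.3, 18.03 and 21.0 (log2 3.90, SE 0.188, adjusted p = 4.39e-09), above the 9.47 to 16.0 of controls. Nr1i3, the xenobiotic receptor CAR, rose from 1.62, 1.79 and 1.39 to 14.9, 17.1 and 16.6, and stayed below the 50.8 to 67.4 of controls. Bcl6, a repressor that maintains male gene expression in mouse liver, rose from 2.97 ± 0.510 to 22.7 ± 0.419, Tbx3 from 1.82 ± 0.195 to 11.8 ± 1.57 and the glucose-sensing factor Mlxipl from 43.3 ± 1.26 to 141 ± 3.19. Gata6, a factor of early liver development, went the other way, at 3.63 against 7.91, and Prox1 (adjusted p = 0.754) and Srebf2 (adjusted p = 0.145) were not called.

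The genes of lipid transport were higher in 22 of 32 members and lower in 6, with 12 (37.5%) at least 2-fold higher and 4 (12.5%) at least 2-fold lower, and in the 4-library fit 13 were called higher and 3 lower at any fold. Apoa4, an apolipoprotein of triglyceride-rich particles, rose from 8.60, 9.28 and 8.02 to 298, 297 and 292, above the 120 to 154 of controls. Fabp1, the fatty acid-binding protein of hepatocytes, rose from 276 ± 5.43 to 3209 ± 30.2 and remained below 7608 ± 343 in controls, and the hepatic lipase gene Lipc rose from 40.5 to 239. Among the falls were the lipoprotein receptor Vldlr from 36.6 ± 1.04 to 1.37 ± 0.358 and lipoprotein lipase, Lpl, from 308 ± 8.91 to 68.5 ± 0.652. Apoe was at 14103 and 13712 and was not called (adjusted p = 0.637).

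The counts of glucose, iron and NRF2 genes stand against 33.4% of all genes higher and 34.0% lower, 8.13% and 12.5% by at least 2-fold. Glucose genes split by enzyme. Of 31 tested 15 were higher and 10 lower, 6 (19.4%) and 3 (9.68%) by at least 2-fold, and the median of 0.10 turned to -0.16 with equal library totals. The 4-library fit called 7 higher and 3 lower. Pklr, the pyruvate kinase of liver, rose from 39.6 ± 0.447 to 373 ± 1.44, beyond 163 ± 30.4 in controls, and its other gene Pkm, used by growing cells, was lower at 31.2 ± 2.03 against 78.3 ± 4.15. The hexokinase gene Hk2 was lower at 3.98 against 7.60. Of the glucose genes 2, both of glucose transport, passed the filter on low values only through YAP Tg. In iron and heme handling 10 of 24 were higher and 10 lower, 5 (20.8%) each by at least 2-fold, with the median of 0.11 turning to -0.14 with equal totals, and 7 and 4 were called in the 4-library fit. Hamp, the iron hormone hepcidin, went from 565, 616 and 548 to 120.1, 104 and 119.5, and the iron exporter Slc40a1 from 421 ± 6.21 to 158 ± 0.0650, while Alas1, the first enzyme of heme synthesis in liver, rose from 143 ± 4.08 to 579 ± 9.24. Of the NRF2 genes 10 of 20 were higher and 8 lower, 1 each by 2-fold, and the median of 0.19 turned to -0.06 with equal totals, where 3 were higher and 9 lower. In the 4-library fit 1 was called higher and 3 lower. The members that passed 2-fold were the malic enzyme Me1, from 13.4 ± 1.03 to 327 ± 8.16, and the quinone reductase Nqo1, from 15.9 ± 0.300 to 5.72 ± 0.237. Of the NRF2 genes 1 passed the filter on low values only through YAP Tg.

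Chaperones of the endoplasmic reticulum were higher. Of 23 genes of the unfolded protein and integrated stress responses 16 were higher and 6 lower, 11 (47.8%) at least 2-fold higher and 1 lower, with a median of 0.88. In the 4-library fit the calls at any fold fell to 12 higher and 2 lower. The folding factors Creld2, Sdf2l1 and Hyou1 rose from 8.28, 9.79 and 9.51 to 54.8, 47.6 and 49.6, from 7.88 ± 0.259 to 39.2 ± 1.04 and from 55.0 ± 2.25 to 259.7 ± 7.996, and all were above control means of 20.8, 14.5 and 170. Hspa5, the chaperone BiP, rose from 725 ± 30.2 to 1666 ± 19.8. Targets of the stress factor ATF4 split, with Chac1 at least 2-fold higher and asparagine synthetase, Asns, lower, from 9.29, 8.76 and 8.38 to 0.581, 0.500 and 0.267 against 7.42 to 8.18 in controls. Asns was thus lower in the knockout libraries than in both other groups, without overlap. Of the 21 clock genes 12 were higher and 2 lower, 3 by 2-fold, against 33.4%, 34.0% and 8.13% of all genes. With equal library totals 7 were higher and 3 lower, in the 4-library fit 3 and 0, and 2 members passed the filter only through the knockout.

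Among genes that write, read or erase DNA methylation the balance of calls depended on the scaling. Of 20 tested 6 were higher and 6 lower, 3 and 2 by at least 2-fold (15.0% and 10.0%), but with equal library totals 5 were higher and 13 lower, and in the 4-library fit 4 and 2. Apart from Tet1 itself, most of the 2-fold changes were at enzymes that make or remove the co-substrate of TET or its competitor: Idh1, which makes 2-oxoglutarate in the cytosol, rose from 217, 214 and 223 to 512, 514 and 516, the mitochondrial Idh2 was lower at 157 ± 6.58 against 320.1 ± 20.6, and D2hgdh, which removes 2-hydroxyglutarate, rose from 15.8 ± 0.690 to 33.3 ± 2.26. The methyl-binding protein gene Mbd1 rose from 17.4 ± 0.468 to 36.3 ± 2.16, still below 80.6 in controls. The de novo methyltransferase gene Dnmt3a was lower at 27.6 ± 1.33 against 45.8 ± 1.65, and Uhrf1 (adjusted p = 0.105) and Dnmt3b (adjusted p = 0.14) were not called. Of 43 histone-modifying enzymes 15 were lower and 7 higher, with a median of -0.06, and 1 member, the deacetylase Hdac9, passed 2-fold (2.33%), at 2.99 ± 0.320 against 12.5 ± 0.312. With equal library totals 30 were lower and 4 higher, and in the 4-library fit 2 and 0. Ezh2, the methyltransferase of Polycomb, was at 7.47 ± 0.475 against 13.9 ± 1.26 (log2 -0.85), and not called in the 4-library fit. Germline genes, which DNA methylation keeps silent in somatic cells, stayed under the filter in 10 of 12 members in the table, and the 2 that were tested were not called.

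Liver genes that male or female mice express more split by sex. Of 19 male-biased genes tested, 19 were higher and 18 (94.7%) by at least 2-fold, and of 9 female-biased genes tested, of 16 in the table, 8 were lower and 7 (77.8%) by at least 2-fold. Moxd1 among the former passed the filter only through the knockout and Hao2 among the latter only through YAP Tg, so their direction was fixed by it. Cyp2b9 and Hao2, a cytochrome P450 and a hydroxyacid oxidase of female liver, went from 21.5 ± 0.975 to 1 read over the group and from 18.5 ± 0.339 to 3 reads. Cux2, a factor of female liver, was at 0.421 ± 0.140 against 13.6 ± 0.368. Among male-biased genes Elovl3, the elongase of very long fatty acids, rose from 1 read over the YAP Tg group to 82.7, 86.0 and 92.2, a factor of 7308 (95% counting interval 1311 to 288706), and stayed below 543 to 619 in controls. Cyp7b1, an oxysterol hydroxylase, rose from 4.31 ± 0.497 to 196 ± 1.71, and Moxd1 rose from 1 read over the group to 9.70 ± 0.965, when controls had 0.0343 ± 0.0305. Cyp17a1 was the female-biased gene that rose, from 0.600 to 10.4.

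All 9 libraries held reads of the 4 Y-linked genes. Uty was at 51.7, 49.6 and 55.9 in YAP Tg and 55.5, 54.7 and 52.3 in the knockout, and Kdm5d at 33.7 ± 1.184 and 36.6 ± 1.85, neither called. Ddx3y (log2 0.33) and Eif2s3y (log2 0.22) were called higher, calls that ended in the 4-library fit, and with equal library totals Eif2s3y, Kdm5d and Uty turned to -0.04, -0.14 and -0.20. The X inactivation transcript Xist was at 5.83, 0.138 and 0.182 in YAP Tg, 0.0894, 12.2 and 3.73 in the knockout and 12.9, 15.3 and 0.119 in controls. It varied within every group beyond any difference between them, and was not called (adjusted p = 0.46).

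**Figure D4:**
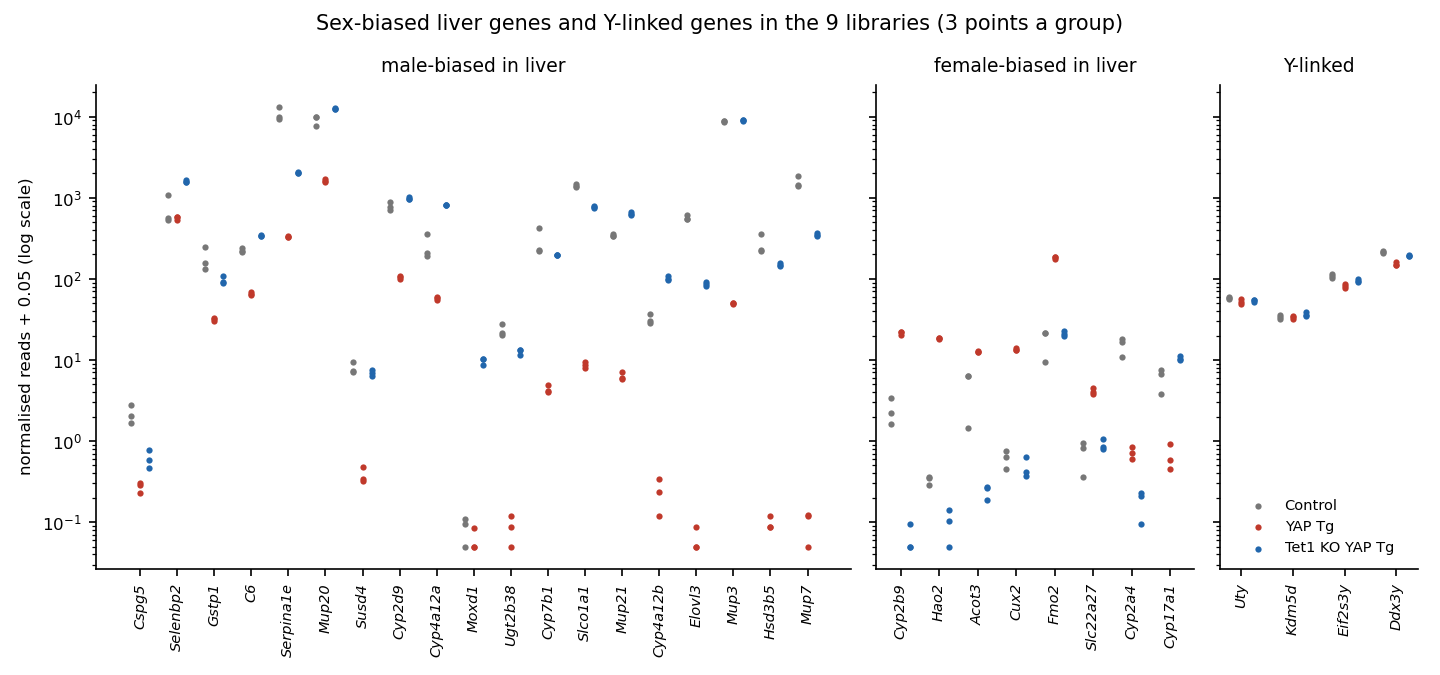
Levels of sex-biased liver genes and Y-linked genes in the 9 libraries, as normalised reads + 0.05 on a log scale, with Control in grey, YAP Tg in red and Tet1 KO YAP Tg in blue. Most male-biased genes are lowest in YAP Tg, except Moxd1 and Selenbp2, where YAP Tg overlaps Control. Most of the 8 female-biased genes shown, such as Cux2, are highest there, except Cyp17a1 and Cyp2a4, and Y-linked genes such as Uty lie close together in all 9 libraries.

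Markers of cell types moved with these groups, and in bulk RNA fewer cells of a type and less RNA per cell cannot be told apart. All 15 Kupffer cell and macrophage markers were at least 2-fold lower, and their summed level was 3004 to 3073 normalised reads in YAP Tg, 684 to 713 in the knockout and 540 to 731 in controls. Lyz2, the lysozyme of macrophages, went from 379, 384 and 378 to 56.9, 54.6 and 49.9, and Vsig4, a complement receptor of Kupffer cells, from 323, 331 and 337 to 51.1, 51.1 and 54.9. Neutrophil markers were lower in all 12 members tested, 11 by at least 2-fold, but 10 of them passed the filter only through YAP Tg, so that their fall is not independent of it. The list had sums of 38.04 to 39.3 in YAP Tg and 3.63 to 3.89 in the knockout. Of 5 B and plasma cell markers tested, 3 of which passed the filter only through YAP Tg, 4 were lower, and of 5 T and NK cell markers 1 was. The T and NK list summed to 7.20 to 8.66 and 5.59 to 6.61.

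Cholangiocyte and progenitor markers were lower in 4 of 10 members and higher in 2, against 34.0% and 33.4% of all genes. All 4 falls were by at least 2-fold, against 12.5% of all genes. Of the 10 members, 2 passed the filter on low values only through the knockout, so the direction of these 2 is not independent of it. The sum of the whole list was 1721 to 1751 in YAP Tg, 341 to 359 in the knockout and 72.8 to 88.5 in controls. Most of it was Spp1 (osteopontin), at 1655, 1679 and 1652 in YAP Tg and at 321, 317 and 304 in the knockout. Prom1, a progenitor surface marker, went from 24.998 ± 0.253 to 2.09 ± 0.320, whereas Epcam, a defining marker of bile duct epithelium, was at 2.46 and 1.87 and not called (adjusted p = 0.124). Hepatocyte markers were higher in 7 of 10 members and lower in 3, with a sum of 128441 to 131208 in YAP Tg and 67952.5 to 70717 in the knockout, most of it Alb. Apart from Alb, Tat, which breaks down tyrosine, rose from 448 ± 3.07 to 1426 ± 17.8 and the asialoglycoprotein receptor gene Asgr1 from 82.5 ± 4.74 to 229.6 ± 3.05. Endothelial markers summed to 717 to 735 and 711 to 720, which overlap, with 5 of 12 members higher, 4 lower and none 2-fold. The median of 0.03 turned to -0.22 with equal totals.

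Stellate cell and fibroblast markers were higher in 8 of 14 members and lower in 2, with sums of 467 to 479 in YAP Tg and 688 to 703 in the knockout. Reln and Lrat, both of quiescent stellate cells, rose from 60.6, 61.2 and 61.5 to 163, 165 and 168 and from 19.9 ± 1.78 to 59.2 ± 0.817, and Acta2, the smooth muscle actin of activated cells, was lower at 2.22 ± 0.398 against 6.26 ± 0.749, a call that ended in the 4-library fit. Erythroid genes were higher in 6 of 7 members, and 1 of the 7 passed the filter on low values only through the knockout. The erythroid sum was 81.4 to 94.7 in YAP Tg and 337 to 367 in the knockout. The defining erythroid gene Alas2 rose from 8.70 ± 0.501 to 113 ± 2.93, and the identical copies Hba-a1 and Hba-a2 share 1 value. Mesothelial markers were higher in 3 of 4. Pancreatic acinar, adipocyte and intestinal lists had 2, 3 and 2 members tested, and of these Cela1, an elastase, rose from 1.83 to 13.7 and the fatty acid-binding protein gene Fabp2 from 8.76 to 54.0. Fabp2 is of the intestinal list, and the other intestinal marker tested was at least 2-fold lower. At any fold, the 4-library fit called all 15 macrophage and 10 neutrophil markers lower, 3 cholangiocyte markers lower, 2 hepatocyte, 3 stellate cell and 3 erythroid markers higher and no T and NK cell marker. The part of macrophages, neutrophils, bile duct cells and blood in the gene groups above was not tested. The Kupffer cell and neutrophil sums moved in the same direction as the medians of the immediate early, cell cycle and Notch lists and of the cytoskeletal, junction and epithelial list. The cholangiocyte sum did so as well, but it was mostly Spp1. Of the 10 members tested in that list 4 were lower and 2 higher. The YAP and TEAD, TGF-beta and apoptosis lists also had negative median log2 fold changes (-0.58, -0.22 and -0.27).

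**Figure D5:**
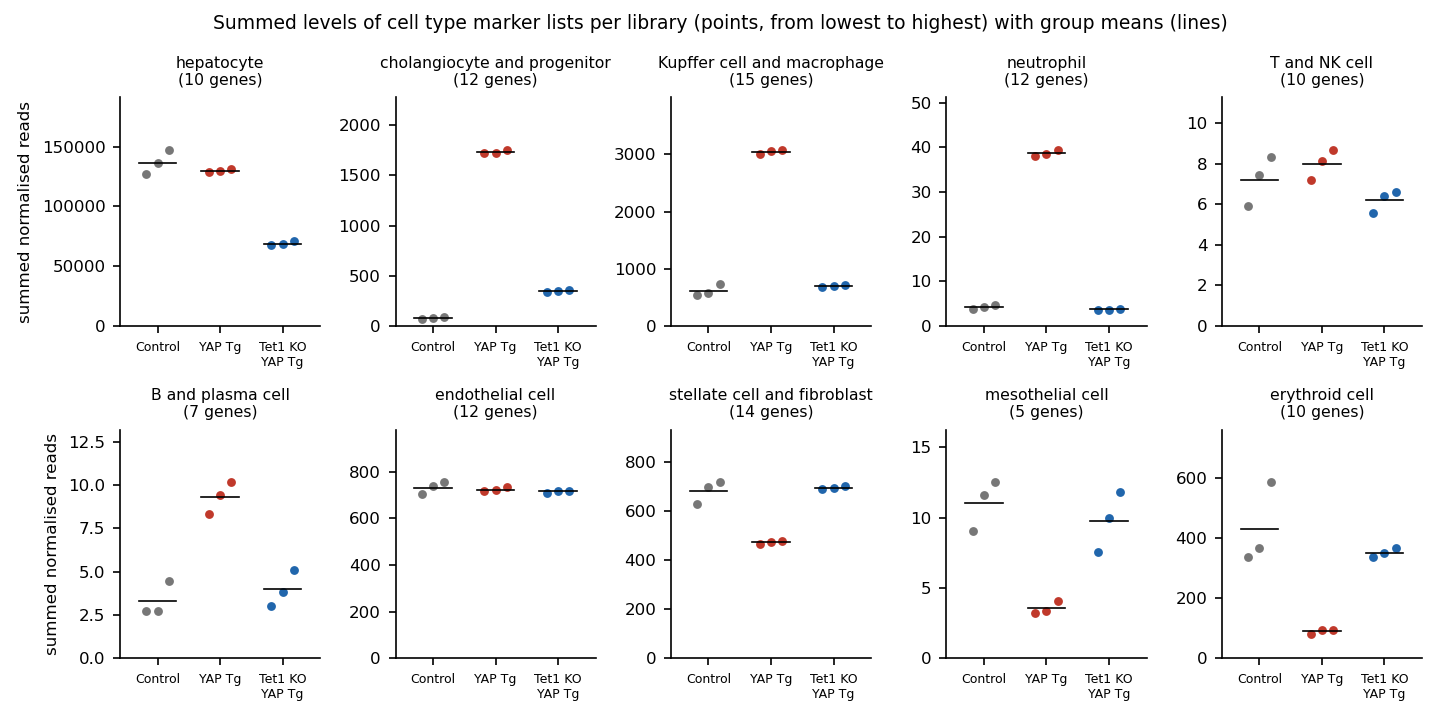
Summed normalised reads (y axes from 0) of the marker lists of 10 cell types in the 9 libraries, shown within each group from lowest to highest, with lines at the group means. The macrophage sums are 3004 to 3073 in YAP Tg and 684 to 713 in Tet1 KO YAP Tg, and the endothelial sums of these groups overlap.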

How the data were processed

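Liver RNA was sequenced in 9 libraries, 3 of each genotype (wild type, YAP Tg, Tet1 KO YAP Tg). TopHat2, featureCounts, edgeR and the mouse build mm10 are named, without versions, per the submitters' processing notes. The deposited table gives a signal per gene and library that is scaled per library, called normalised reads. Library totals in this unit ran from 846970 (YAP Tg replicate 1) to 1184333 (Control replicate 3). All its non-zero values are whole multiples of the value of 1 read within a tolerance of 0.02 reads (100%), which gave the depth of each library. The authors' deposited log2 fold change and false discovery rate (an adjusted p-value) for this comparison were read beside the fit. The table's 3 deposited TPM columns of decitabine-treated liver were not compared.

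Genes with at least 0.5 normalised reads in 3 or more of the 9 libraries were tested (13730 of 18591) with limma 3.58.1 in R 4.3.3 (empirical Bayes with a trend) on log2(normalised reads + 0.5), a scale that understates the change of low genes. All 9 libraries shared 1 estimate of the spread, and p-values were adjusted by Benjamini-Hochberg over all genes tested. A gene was called at an adjusted p below 0.05, and a 2-fold change also needed a log2 fold change of at least 1. The script was tested on simulated data. Alternatives included edgeR 4.0.16 and DESeq2 1.42.0 on the recovered read counts, which are not the deposited values, and adding together libraries of a group whose variation beyond sampling was below 0.05, which left 4 libraries. Gene positions come from RefSeq by symbol or synonym, which matched all but 116 genes.

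The members and gene lists were chosen with earlier results of these data known. Named genes are Tet1, Tet2, Tet3 and Yap1, the 15 largest rises and falls with a mean of at least 5 normalised reads in the higher group (without Mup genes, predicted genes and pseudogenes), up to 4 called members of each list by size of change, the 10 largest gains and losses in normalised reads, sex chromosome transcripts, and genes without reads in one of the groups. Other genes named as examples were chosen after their values were seen. Some genes that these rules select are not reported here, although they count in the totals.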

Additional observations from a re-analysis of the deposited data

How the results depend on the processing

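The count of genes called depended most on whether very similar libraries count as separate samples. With near-identical libraries added together, which left 4 libraries and 1 residual degree of freedom, 2953 genes were called, 1316 higher and 1637 lower, and 2570 of the 2830 genes at 2-fold were shared with the 9-library fit. With equal library totals 2949 genes were higher, and 765 were at least 2-fold higher and 2288 at least 2-fold lower. In that setting the log2 fold changes of Eif2s3y, Kdm5d and Uty turned to -0.0372, -0.1362 and -0.2047. A limma test against a 2-fold threshold called 1693 genes, 706 higher and 987 lower, and a pseudocount of 2 left 1109 genes at least 2-fold lower. Leaving out 1 library at a time gave 8500 to 10253 genes called, 4212 to 5115 higher and 4278 to 5138 lower, with 2816 to 2881 at 2-fold, 1109 to 1130 higher and 1686 to 1752 lower. The cause of these shifts was not tested. Tests on recovered counts called 9351 genes (edgeR) and 8941 (DESeq2), and a fit of the 6 libraries alone 10378. Of 169 named genes called, 27 lost the call with near-identical libraries added together. Without 1 library, Cidec, Klrb1c, Lrrn4 or Usp2 lost theirs. Libraries with the same replicate number deviated from their group means with correlations of 0.0681, 0.0252 and 0.2596, and not every library correlated best with its own number, so the numbers are not shown to pair the libraries. A replicate block in the 9-library fit called 9246 genes and left 2830 at 2-fold, and in the 6-library fit it called 10540. Depth limits genes near the 0.5 filter, where a few reads set the value.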

Other observations

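Gene families sorted by the stem of their names, of which 160 had 10 or more members tested, gave some groups that no list above holds. The shares of all genes beside which their counts stand are 33.4% higher and 34.0% lower, 8.13% and 12.5% by at least 2-fold. Histone genes, whose messengers rise in cells that copy their DNA, were lower in 36 of 42 members (85.7%) and higher in 1, with 17 (40.5%) at least 2-fold lower and none 2-fold higher. Of these members 13 passed the filter on low values only through YAP Tg, and 10 were called lower with near-identical libraries added together. The linker histone gene Hist1h1a was at 11.3, 11.2 and 10.3 normalised reads in YAP Tg and at 2.82, 3.68 and 2.77 in Tet1 KO YAP Tg. Kinesin motor genes (Kif) were at least 2-fold lower in 13 of 32 (40.6%), with Kif20a, a motor of the last step of cell division, going from 18.5, 18.2 and 20.2 to 4.83, 4.41 and 3.63. Of the 32 kinesin genes 2 passed the filter only through YAP Tg, as did 2 of 12 Toll-like receptor genes. Toll-like receptor genes were lower in 8 of 12, 7 (58.3%) by at least 2-fold, and Tlr13, a sensor of bacterial RNA, went from 27.9, 26.9 and 30.1 to 6.26, 5.45 and 5.39. The macrophage sum moved in the same direction, and its part in these values was not tested.

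UDP-glucuronosyltransferase genes (Ugt), whose products make drugs and steroids soluble, were higher in all 18 members tested, 11 (61.1%) by at least 2-fold, and in 17 with equal library totals. Ugt2b1 rose from 118.6, 120.1 and 127 to 2329.7, 2343 and 2393, above the 950 to 1074 of controls. Members of the Ugt1a cluster share exons, so their reads cannot be told apart in full. Zinc finger genes (Zfp) were lower in 42.8% and higher in 13.5% of 327, and 6.12% and 0.917% passed 2-fold, which is below the 12.5% and 8.13% of all genes.

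On the X chromosome 82 of 442 genes tested (18.6%) were at least 2-fold lower, against 10.1% to 14.9% on the autosomes. At least 2-fold higher were 6.11% of the X genes, against 6.23% to 11.2% on the autosomes. How many X genes passed the filter only through YAP Tg was not counted. Of the 56 genes tested within 5 Mb of Tet1, 2 were at least 2-fold higher (3.57%) and 5 lower (8.93%), against 8.13% and 12.5% of all genes.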
